A study of Mus musculus with 6 samples.

Results

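The 10 genes described here are the transcriptional co-activators Yap1 and Wwtr1 (TAZ), their DNA-binding partners Tead1 and Tead2, and 6 genes known as their targets, Ccn1 (listed elsewhere as Cyr61), Ccn2 (Ctgf), Ankrd1, Amotl2, Lats2 and Axl. They were chosen by name, and every probe set that the platform annotation assigns to 1 of these symbols alone was taken, which gave 24 probe sets for 10 of the 18193 named genes on the array. RNA came from NIH3T3, an immortalised mouse fibroblast line, as the single clone M with lac operator (lacO) arrays integrated at multiple sites. Tethering to the inner nuclear membrane was inducible: in 3 tethered samples the integrated DNA lay at the nuclear periphery, and in 3 untethered samples it lay centrally. All 6 samples shared the clone, culture in DMEM with 10% fetal calf serum and harvest at about 80% confluency as labelled. Nothing in the labels says that the arrays within a group came from separate cultures, so p-values measure only the spread between these samples, which may be technical. The tethering protein and the inducer are not named in the labels.

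YAP and TAZ carry no DNA-binding domain of their own and act through TEAD proteins bound near target genes. In the Hippo pathway the kinases LATS1 and LATS2 phosphorylate YAP and TAZ, which holds them in the cytoplasm. In cultured fibroblasts this is known to happen as cells become crowded, so that YAP leaves the nucleus and its targets fall at high density. CCN1 and CCN2 are widely used readouts of YAP activity, and both also respond quickly to serum.

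TEAD proteins recognise the short sequence GGAATG, which reads CATTCC when it lies on the opposite strand, and it was looked up in the promoters of the 10 genes. Promoter windows from 250 bases before to 50 bases after the start came from RefSeq (GRCm38.p6), with an entry for 8 of the 10 genes (10 windows) and none for Ccn2 and Tead1. Both strands were searched, and capitals mark the matches. The upstream 250 bases of Ccn1, which ranged over 1.90 on the log2 scale between arrays, and of Ankrd1, which ranged over 0.58 and held more than 1 match, are shown in full.
Ccn1, chr3:145649986-145650235, minus strand: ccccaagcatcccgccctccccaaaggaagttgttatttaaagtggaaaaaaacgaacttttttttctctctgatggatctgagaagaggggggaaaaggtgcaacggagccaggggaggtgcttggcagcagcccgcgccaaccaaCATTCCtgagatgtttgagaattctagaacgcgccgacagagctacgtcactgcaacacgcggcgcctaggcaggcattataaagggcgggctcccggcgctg
Ankrd1, chr19:36119845-36120094, minus strand: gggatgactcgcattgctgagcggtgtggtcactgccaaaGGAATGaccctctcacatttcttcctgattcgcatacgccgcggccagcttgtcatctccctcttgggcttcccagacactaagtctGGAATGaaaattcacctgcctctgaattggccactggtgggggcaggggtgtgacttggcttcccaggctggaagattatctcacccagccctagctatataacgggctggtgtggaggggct
The matches in the other genes are shown with 12 bases on either side.
Yap1, chr9:8004720-8004749, minus strand: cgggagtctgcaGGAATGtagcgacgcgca
Wwtr1, chr3:57576029-57576058, minus strand: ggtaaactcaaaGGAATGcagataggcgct
Amotl2, chr9:102717727-102717756, plus strand: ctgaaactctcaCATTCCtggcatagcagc
Axl, chr7:25788949-25788978, minus strand: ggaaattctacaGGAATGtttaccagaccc
Lats2, chr14:57746102-57746131, minus strand: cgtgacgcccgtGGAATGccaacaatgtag
Ccn1 held 1 match, with its first base at -103 from the start, and Ankrd1 held 2, at -210 and -123. Amotl2 had its match at -65, Yap1 at -141, Axl at -233 and Wwtr1 at -136 from the first of its 2 listed starts, while the match of Lats2 lay just after the first listed start, at position 5. Within the upstream 250 bases, 6 of the 8 genes held the letters, in 7 of their 10 windows, against 12.6% of 32851 mouse promoter windows. The 2 windows of Wwtr1 overlap and share 1 site, and Tead2 held none. The AP-1 motif TGANTCA, searched in the same way, was in 0 of the 8 genes and in 6.75% of all upstream windows. A match describes these letters alone.

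Before any comparison, the arrays themselves differed. The median intensity lay between 482.4 and 490.9 over the 6 arrays. The first principal component of the tested probe sets held 62.1% of the variance and set the arrays numbered 1 (-38.0 tethered, -30.3 untethered) apart from the other 4 (5.5 to 26.6). In 23.3% of tested probe sets both arrays numbered 1 lay below the other 4, and in 12.2% above them. Fibroblast markers were bright, with a mean log2 intensity over 11 tested genes of 12 from 12.29 in tethered replicate 1 to 12.82 in untethered replicate 2, and of these 1 lay above and 10 below 0 in the comparison of the groups, with a median of -0.10. The fibroblast genes of smallest p were the receptor Pdgfrb (log2 fold change -0.73, SE 0.24) and the matrix genes Postn (-0.25, SE 0.11), Fn1 (-0.15, SE 0.11) and Col5a1 (-0.16, SE 0.15), none past the adjusted threshold. From 12 epithelial and 10 each of endothelial, muscle and macrophage genes, 5 per list were bright enough to be tested. The tested epithelial genes averaged 10.98 to 11.08 per array, above the fibroblast gene Postn (9.76 in tethered and 10.00 in untethered arrays). Of the 5, 4 lay above and 1 below 0 for epithelial (median 0.06) and for endothelial genes (0.13). For muscle genes 5 lay above and 0 below (0.04), and for macrophage genes 2 above and 3 below (-0.02). By log2 fold change the 4 genes of smallest p in each list lay as follows: Cldn3, Grhl2, Epcam and Krt14 lay between 0.04 and 0.13, Pecam1, Flt1, Kdr and Egfl7 between 0.11 and 0.18, Des, Ckm, Acta1 and Tnni2 between 0.02 and 0.18, and Adgre1, Csf1r, Cd14 and Lyz2 between -0.25 and 0.07. The genes below 0 in the epithelial and endothelial lists were Cldn4 and Esam, at -0.04 each. The mean deviation of these 4 lists from the 6-array mean stayed between -0.09 and 0.12 on every array. The values carry no statement of detection, so no gene is called absent.

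The study compared gene expression with the integrated DNA at the periphery and in the centre, and for these 10 genes no difference between the groups was detected. On the brightest probe set of each gene, 4 genes had a log2 fold change (tethered minus untethered) above 0 and 6 below 0, with a median of -0.04, against -0.02 over all 22518 tested probe sets. Limma with Benjamini-Hochberg adjustment called 0 of the 18 tested probe sets of these genes, each at an adjusted p of 0.9994. The background was 0% (0 of 22518), so the absence of calls is not particular to these genes. Unadjusted, 0 of the 18 had p under 0.05 in this fit, which left out the replicate number, where the background was 2.38%. For 8 of the 10 genes the 95% interval of the fold change lay within 2-fold in either direction, and the exceptions were Ccn2 and Ccn1. All 10 genes passed the filter on mean signal through at least 1 probe set, and 6 further probe sets, of Tead1, Lats2 and Axl, lay below it.

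**Figure D1:**
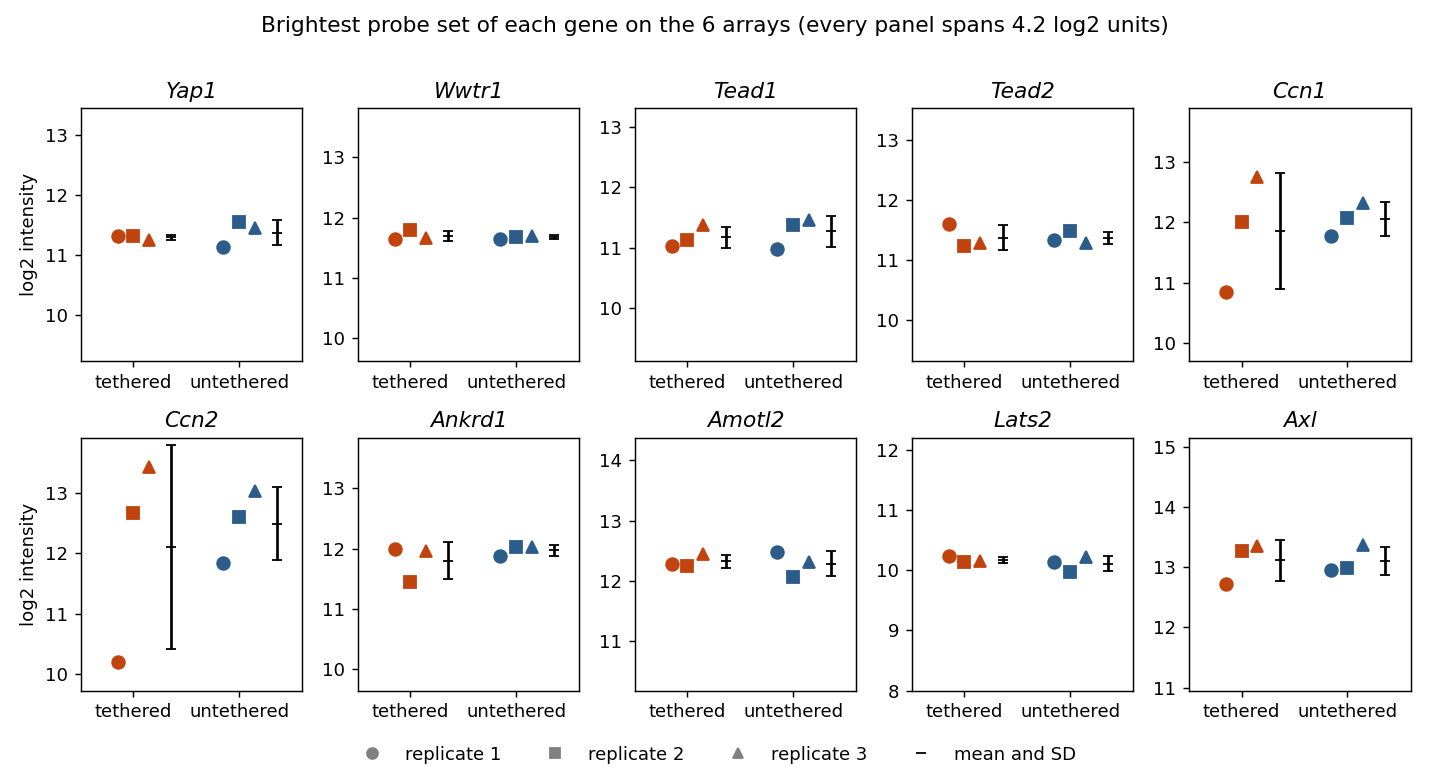
Log2 intensity of the brightest probe set of each of the 10 genes, tethered arrays on the left and untethered arrays on the right of each panel. Symbols give the replicate number and bars the mean and SD (n = 3). Every panel covers the same span. Ccn2 in both groups, and Ccn1 in the tethered group, spread far more than the other 8 genes. Among untethered arrays the range of Ccn1 (0.55) was close to that of Tead1 (0.49).

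On their brightest probe sets the co-activators ranged over 0.15 (Wwtr1) and 0.42 (Yap1) between arrays, where the median of all tested probe sets was 0.34. Wwtr1, which encodes TAZ, had log2 intensities of 11.64, 11.79 and 11.66 in tethered replicates 1, 2 and 3, against 11.64, 11.68 and 11.70 in untethered replicates 1, 2 and 3. The groups overlapped, and the log2 fold change was 0.03 (SE 0.069, 95% interval -0.14 to 0.19, 0.907-fold to 1.14-fold). Its range over the 6 arrays was wider than that of 9.5% of tested probe sets, and that of Yap1 was wider than that of 60.7%. Its other probe sets stood at 0.08 (SE 0.11) and 0.19 (SE 0.14).

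Yap1 read 11.31, 11.32 and 11.24 in tethered replicates 1, 2 and 3, and 11.13, 11.54 and 11.44 in untethered replicates 1, 2 and 3. The untethered values lay on both sides of the tethered ones, and the log2 fold change was -0.08 (SE 0.12, 95% interval -0.37 to 0.21). The second Yap1 probe set pointed the other way, at 0.30 (SE 0.22, 95% interval -0.25 to 0.85), with overlapping groups as well. Its 3 tethered values were 9.74, 10.19 and 10.27, and its untethered values 9.59, 9.52 and 10.18. Fewer cells making a transcript and less of it per cell cannot be told apart in RNA from whole cultures.

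The TEAD factors bind the DNA through which YAP and TAZ act. Tead1 had 11.03, 11.13 and 11.37 in tethered replicates 1, 2 and 3, against 10.97, 11.38 and 11.46 in untethered replicates 1, 2 and 3. The lowest values came from the array numbered 1 in each group, and the log2 fold change was -0.09 (SE 0.16, 95% interval -0.48 to 0.29). A dimmer Tead1 probe set below the filter stood at 0.07. Tead2 averaged 11.37 ± 0.20 in tethered and 11.37 ± 0.10 in untethered arrays (SD, n = 3 each), with a 95% interval of -0.29 to 0.29 for the difference. The highest Tead2 value was 11.61 in tethered replicate 1 and the lowest 11.24 in tethered replicate 2.

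Ccn2 and Ccn1, both secreted proteins of the matrix around cells, spread further over the arrays than the other 8 genes. Ccn2 (probe set 1416953_at) had intensities of 1176, 6544 and 11138 in tethered replicates 1, 2 and 3, against 3675, 6226 and 8407 in untethered replicates 1, 2 and 3. On the log2 scale these were 10.20, 12.68 and 13.44 in tethered and 11.84, 12.60 and 13.04 in untethered arrays. Tethered replicate 1 was the lowest and tethered replicate 3 the highest of the 6, so the untethered values fell within the tethered span. The extremes were 9.47-fold apart, a log2 range of 3.24 that ranked 23 among 22518 tested probe sets. The mean was 12.11 ± 1.7 in tethered and 12.50 ± 0.60 in untethered arrays (SD, n = 3 each). The log2 fold change of -0.39 (SE 0.85) had a 95% interval from -2.46 to 1.68, that is from 0.182-fold to 3.21-fold. A change of 2-fold in either direction lay within that interval.

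Ccn1 had the same lowest and highest arrays with a smaller span. Its brightest probe set (1416039_x_at) had 10.84, 12.00 and 12.75 in tethered replicates 1, 2 and 3, against 11.77, 12.08 and 12.33 in untethered replicates 1, 2 and 3. Again tethered replicate 1 was lowest and tethered replicate 3 highest, and the range of 1.90, or 3.74-fold, exceeded that of 99.0% of tested probe sets. The log2 fold change was -0.19 (SE 0.47, 95% interval -1.35 to 0.96). A second probe set, 1438133_a_at, ranged over 2.41 with a log2 fold change of -0.28 (SE 0.60). The remaining pair of Ccn1 probe sets ranged over 0.40 each and stood at 0.06 and 0.08. All 4 had the array numbered 1 of each group below the other 4 arrays.

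For both genes 1 array set the sign of the difference. Without tethered replicate 1 the log2 fold change was 0.56 for Ccn2 and 0.32 for Ccn1, and without tethered replicate 3 it was -1.06 for Ccn2 and -0.64 for Ccn1. Without both arrays numbered 1 it was 0.24 for Ccn2 and 0.17 for Ccn1, and limma gave adjusted p-values of 0.8045 and 0.8458 for Ccn2 and for Ccn1.

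**Figure D2:**
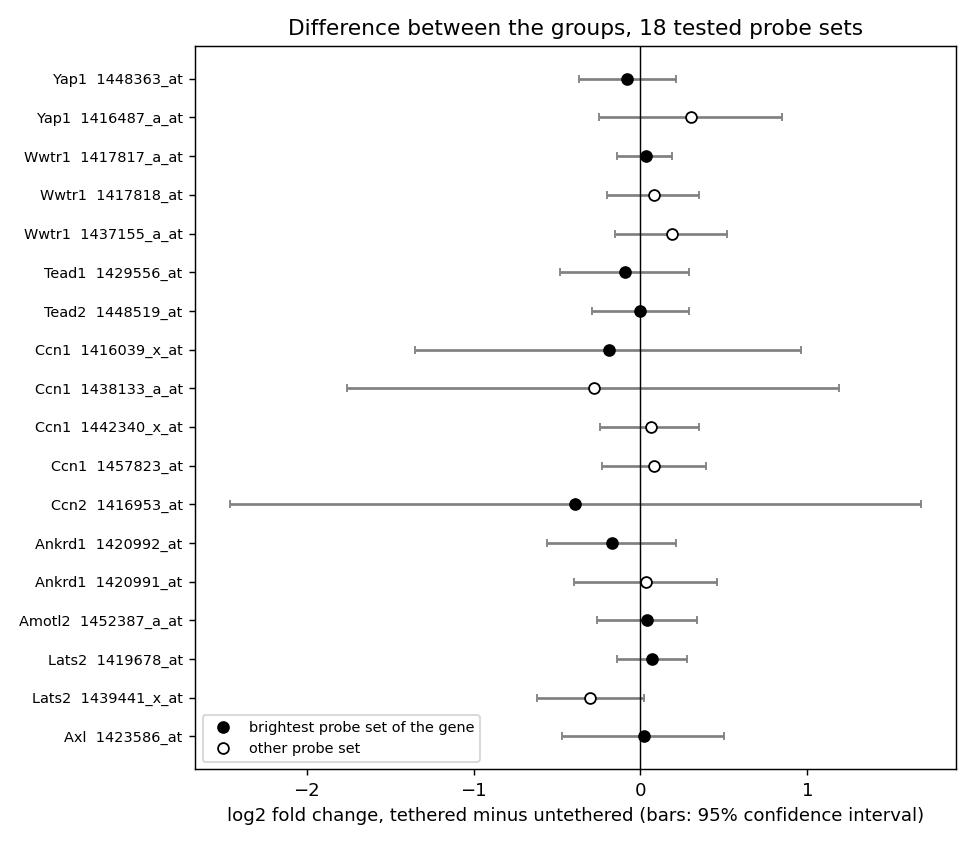
Log2 fold change, tethered minus untethered, of the 18 tested probe sets with its 95% confidence interval from limma. Filled points are the brightest probe set of a gene. Every interval holds 0, and those of Ccn2 and of 2 Ccn1 probe sets are the widest.

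The other targets had smaller ranges than Ccn2 and Ccn1, at 0.63 for Axl, 0.58 for Ankrd1, 0.42 for Amotl2 and 0.26 for Lats2, where the median of all tested probe sets was 0.34. Ankrd1, an ankyrin-repeat protein that acts in the nucleus and binds titin in muscle, had 11.99, 11.45 and 11.96 in tethered replicates 1, 2 and 3, against 11.87, 12.03 and 12.02 in untethered replicates 1, 2 and 3. Tethered replicate 2 was the low array here, while tethered replicate 1, the lowest for Ccn2 and Ccn1, was not. The log2 fold change was -0.17 (SE 0.16, 95% interval -0.56 to 0.21), and the second Ankrd1 probe set stood at 0.03 (SE 0.17). Axl, a receptor tyrosine kinase for the ligand GAS6, had 12.73, 13.27 and 13.35 in tethered replicates 1, 2 and 3, against 12.96, 12.98 and 13.37 in untethered replicates 1, 2 and 3. It too was lowest in tethered replicate 1, over a range of 0.63, and its log2 fold change was 0.02 (SE 0.20, 95% interval -0.47 to 0.50). A second, dim Axl probe set below the filter stood at -0.18.

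Amotl2 and Lats2 are targets that feed back on YAP: AMOTL2 binds YAP outside the nucleus and LATS2 phosphorylates it. Amotl2 had 12.28, 12.25 and 12.45 in tethered replicates 1, 2 and 3, against 12.48, 12.07 and 12.31 in untethered replicates 1, 2 and 3. The groups overlapped, with a log2 fold change of 0.04 (SE 0.12, 95% interval -0.26 to 0.34). Untethered replicate 1, in which Ccn2 and Ccn1 were the second lowest of the 6, was the highest array for Amotl2.

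Lats2 was measured by 6 probe sets that differed in direction. The brightest had 10.23, 10.13 and 10.16 in tethered replicates 1, 2 and 3, against 10.14, 9.97 and 10.22 in untethered replicates 1, 2 and 3, with a log2 fold change of 0.07 (SE 0.086). The probe set 1439441_x_at had 9.66, 9.22 and 9.60 in tethered and 9.71, 9.81 and 9.87 in untethered arrays, in order of replicate number. Its tethered values all lay below the untethered ones, by a log2 fold change of -0.30 (SE 0.13, limma adjusted p = 0.9994), and it was the 1 of 18 tested probe sets whose groups did not overlap, where the background was 8.16%. Of the 4 Lats2 probe sets below the filter, 2 had all tethered values above the untethered ones, at 0.47 and 0.12, against a background of 9.68% without the filter, and the others stood at 0.01 and 0.03. No direction can be given for the gene.

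**Figure D3:**
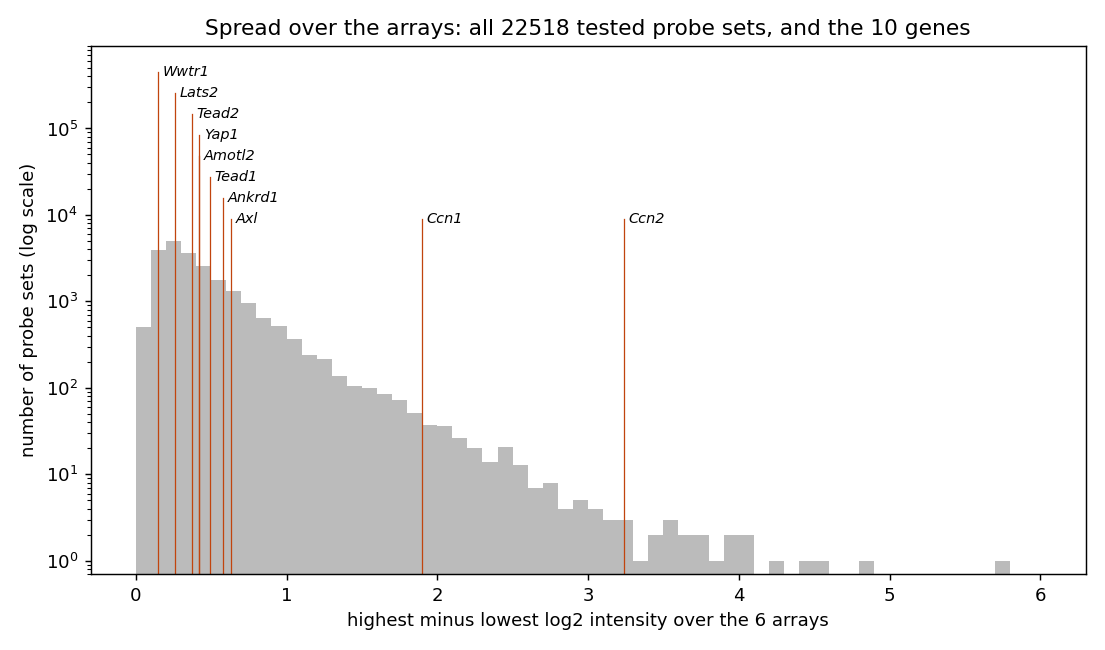
Number of tested probe sets (log scale) by the range of log2 intensity over the 6 arrays, with the brightest probe set of each of the 10 genes marked. Ccn2 at 3.24 and Ccn1 at 1.90 lie in the far tail, and the other 8 genes lie between 0.15 and 0.63.

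Other genes of the pathway gave no call either. Of 36 listed Hippo pathway genes, 34 were tested, 13 with values above and 21 below 0, 0 called, and a median of -0.04. The smallest p-values belonged to Vgll3, a TEAD cofactor, with a log2 fold change of -0.33 (SE 0.16), Taok3, a kinase upstream in the pathway, at 0.17 (SE 0.08), Tead4, a further TEAD factor, at 0.13 (SE 0.081) and Stk4, the MST1 kinase that activates LATS, at -0.19 (SE 0.11). The mean deviation of all 34 stayed between -0.06 and 0.07 on every array, but single genes went in opposite directions. As examples named after their values were seen, Frmd6 had 9.89 in tethered replicate 1 and 10.77 to 11.10 in the other arrays. Ajuba had 11.57 in tethered replicate 1 and 10.40 to 11.14 in the others. Taok3 stood at -0.22 with the mean of its probe sets.

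Of 25 further genes known as YAP and TEAD targets, mostly from human cells, 20 were tested, with 6 above 0, 14 below 0, 0 called and a median of -0.06. The smallest p-values belonged to Asap1, an ARF GTPase-activating protein, with a log2 fold change of -0.22 (SE 0.096), Lhfp at -0.19 (SE 0.11), Ptpn14, a phosphatase that restrains YAP, at -0.14 (SE 0.092) and F3, tissue factor, at -0.56 (SE 0.41). The mean deviation of all 20 ran from -0.11 to 0.06 over the arrays. In 5 of the 20 both arrays numbered 1 lay below the other 4, against the background of 23.3%, and in 6 they lay above, against 12.2%. A pair of genes with opposite patterns are given as examples chosen after their values were seen. Fstl1, which encodes a secreted glycoprotein, had 10.11, 12.15 and 12.17 in tethered and 10.88, 11.79 and 12.02 in untethered arrays, in order of replicate number. Gadd45a, a growth arrest and DNA damage gene, had 11.41, 7.99 and 7.65 in tethered and 10.31, 8.89 and 8.04 in untethered arrays, so it was high where Fstl1 was low.

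The genes most like Ccn2 and Ccn1 over the 6 arrays were found among 11836 other genes by the root mean square difference of their log2 deviations from the 6-array mean. For Ccn2 they were Dusp6 (0.234), a phosphatase that switches off ERK, S1pr3 (0.262), a receptor for sphingosine 1-phosphate, and Dynap (0.277). For Ccn1 they were Rgs2 (0.143), a regulator of G protein signalling, Tubb2a (0.163), a beta tubulin, and Dusp5 (0.171), another ERK phosphatase. Between Ccn1 and Ccn2 the difference was 0.492. The named genes were picked as the nearest, so this value does not rank Ccn1 and Ccn2 as unlike. The measure also counts a difference in span, and the log2 range was 3.24 for Ccn2 and 1.90 for Ccn1. Dusp6 had 9.20, 11.26 and 11.69 in tethered and 10.61, 11.38 and 11.58 in untethered arrays, in order of replicate number.

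Whether the cultures differed in cell density cannot be read from the labels, which give the same confluency for all 6 samples, so lists of genes that move with growth were set beside the 10 genes. Proliferation genes were tested for 32 of 36, with 11 above 0, 21 below 0, 0 called and a median of -0.06. Their mean deviation was -0.87, 0.30 and 0.51 in tethered replicates 1, 2 and 3, against -0.72, 0.28 and 0.51 in untethered replicates 1, 2 and 3. The array numbered 1 of each group was thus the low one, and in 29 of 32 genes both lay below the other 4 arrays, against the background of 23.3%. Mki67, which encodes the proliferation marker Ki-67, had 9.94, 11.51 and 11.73 in tethered and 10.39, 11.99 and 11.82 in untethered arrays, in the same order. Its log2 fold change was -0.34 (SE 0.62), and Ttk (0.18, SE 0.093), Gins2 (0.08, SE 0.14) and Cenpf (-0.13, SE 0.22) were the other proliferation genes of smallest p.

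Ccn2 rose over the arrays in the order of the proliferation mean, in which the arrays numbered 3 tied at 0.51. Ccn1 did so except in the arrays numbered 2, where tethered minus untethered was -0.08 for Ccn1 and 0.07 for Ccn2. Ccn2 and Ccn1 were below the other 4 arrays in the arrays numbered 1, as the proliferation genes were. The size of the steps differed. The proliferation mean deviation was -0.87 in tethered and -0.72 in untethered replicate 1, while the log2 difference between those arrays was -1.64 for Ccn2 and -0.93 for Ccn1. The mean of the other 8 genes, which went in different directions, stayed between -0.07 and 0.09 on every array. In all, 5 of the 10 genes (Ccn2, Ccn1, Tead1, Axl and Wwtr1) had both arrays numbered 1 below the other 4, where the background was 23.3%, and 0 had both above. For Wwtr1 and Axl the margin was narrow, at 11.64 against 11.66 and 12.96 against 12.98. The other Wwtr1 probe sets did not share it: 1417818_at was highest in tethered replicate 1 (11.75), and 1437155_a_at had 9.84 there against 9.70 in untethered replicate 2. Ccn2, Ccn1 and Axl, 3 of the 10, were lowest in tethered replicate 1, where the background was 21.9%. So were 26 of the 32 proliferation genes, 7 of the 34 other Hippo pathway genes and 6 of the 20 further targets.

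**Figure D4:**
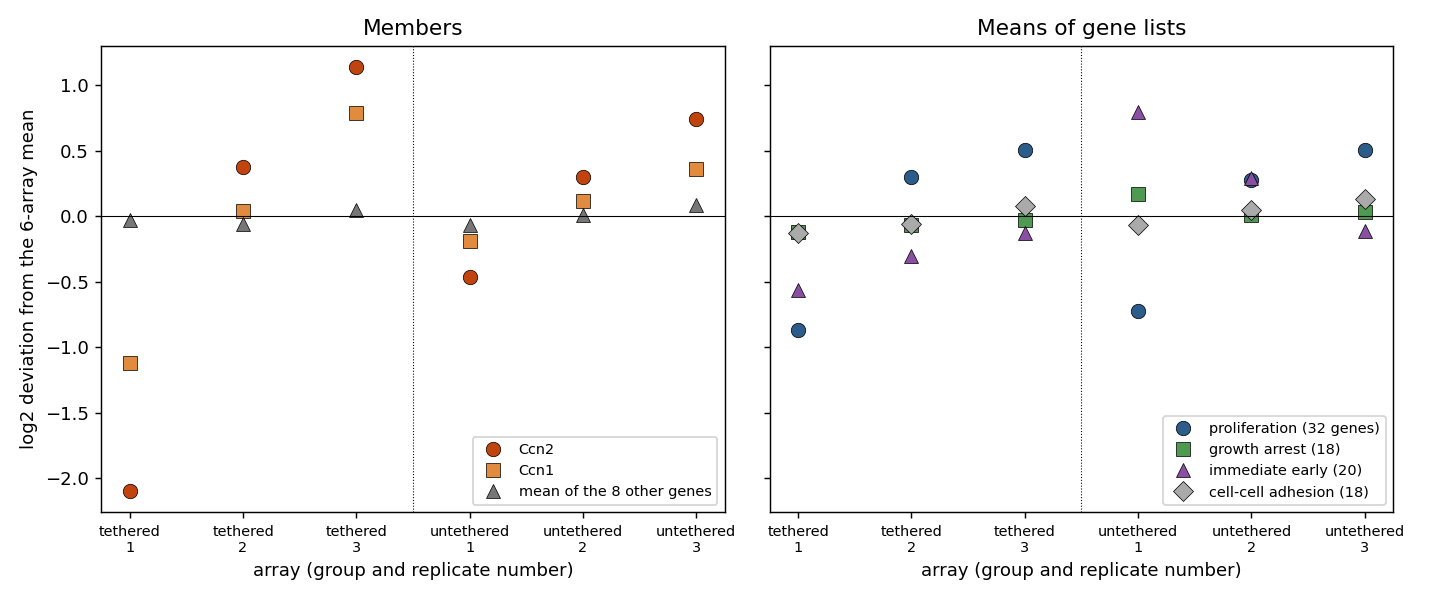
Log2 deviation from the 6-array mean on each array, for Ccn2, Ccn1 and the mean of the other 8 genes (left) and for the means of 4 gene lists (right), tethered arrays before untethered ones. The proliferation mean, Ccn2 and Ccn1 are low in both arrays numbered 1 and lowest in tethered replicate 1. The mean of the other 8 genes stays between -0.07 and 0.09.

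Of 20 genes of growth arrest and quiescence, 18 were tested, with 3 above 0, 15 below 0, 0 called and a median of -0.13. Gas1, a growth arrest gene of fibroblasts, had a log2 fold change of -0.21 (SE 0.13), Hes1, a Notch target, at -0.57 (SE 0.40), Foxo3, a transcription factor of quiescent cells, at -0.15 (SE 0.11) and Cdkn1b, which encodes the CDK inhibitor p27, at -0.28 (SE 0.21). The mean deviation of the 18 was -0.12, -0.07 and -0.03 in tethered replicates 1, 2 and 3, against 0.17, 0.01 and 0.03 in untethered replicates 1, 2 and 3. In 6 of 18 genes both arrays numbered 1 lay above the other 4, against 12.2%, and in 3 below, against 23.3%. Cdkn1b was among the 6, with 10.36, 9.67 and 9.69 in tethered and 10.40, 10.14 and 10.03 in untethered arrays. Gas1 was not, with 11.93, 12.39 and 12.35 in tethered and 12.39, 12.44 and 12.46 in untethered arrays. Gas5, a growth arrest transcript named after its values were seen, had 13.96, 12.54 and 12.49 in tethered and 13.72, 13.23 and 12.50 in untethered arrays.

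Genes of cell-cell adhesion, some of which are known to link cell contacts to the Hippo pathway, were tested for 18 of 22, with 6 above 0, 12 below 0, 0 called and a median of -0.04. Unadjusted, 3 had p under 0.05, all lower in tethered arrays, where the background for that direction was 1.67%. The list was chosen with earlier results of these data known, so this count is no independent evidence. Tjp1, the tight junction protein ZO-1, had 10.52, 10.40 and 10.51 in tethered and 10.70, 10.82 and 10.79 in untethered arrays, in order of replicate number. Its groups did not overlap, at -0.30 (SE 0.07, unadjusted p = 0.00565, limma adjusted p = 0.9994). That held for 2 of the 18 genes, where the background was 8.16%. Ncam1, a neural cell adhesion molecule, stood at -0.40 (SE 0.12), Cdh2, N-cadherin, at -0.34 (SE 0.14) and Ctnnb1, beta-catenin, at -0.19 (SE 0.10). With the mean of its probe sets Ctnnb1 stood at 0.0046.

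Immediate early genes respond to serum, as Ccn1 and Ccn2 do. Of 20 tested, 2 had values above 0 and 18 below 0, with 0 called and a median of -0.50. Unadjusted, 5 had p under 0.05, all lower in tethered arrays, against the background of 1.67%. The groups did not overlap in 8 of the 20, where the background was 8.16%. This list too was chosen with earlier results of these data known, so neither count is independent evidence. Their mean deviation was -0.56, -0.30 and -0.13 in tethered replicates 1, 2 and 3, against 0.80, 0.29 and -0.11 in untethered replicates 1, 2 and 3. The replicate 1 arrays were thus at opposite ends, the tethered one lowest and the untethered one highest. Fos had 8.18, 8.63 and 8.70 in tethered and 11.15, 10.00 and 8.90 in untethered arrays (-1.52, SE 0.55), Junb stood at -1.28 (SE 0.47), Klf6 at -0.36 (SE 0.12) and Ier3 at -0.57 (SE 0.098). The 18S ribosomal RNA control, a probe set at its 5' end, had log2 signals of 10.94, 10.48 and 10.79 in tethered replicates 1, 2 and 3, against 12.06, 12.16 and 11.15 in untethered replicates 1, 2 and 3. The groups did not overlap in it, untethered replicates 1 and 2 had its highest values as well as the highest immediate early means, and its part in the values of these genes was not tested. In untethered replicate 1, Fos was the highest of the 6 while Ccn2 and Ccn1 were the second lowest. Other genes of the list differed from Fos. Both arrays numbered 1 lay below the other 4 in 4 of the 20, against 23.3%, and above in 2, against 12.2%. Fosl1, named after its values were seen, had 10.20, 12.07 and 12.42 in tethered and 11.10, 12.17 and 12.23 in untethered arrays.

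Actin cytoskeleton genes and targets of SRF, a serum-responsive factor that shares targets with YAP, were tested for 18 of 20, with 7 above 0, 11 below 0, 0 called and a median of -0.05. Their mean deviation was -0.27, 0.05 and 0.15 in tethered replicates 1, 2 and 3, against -0.12, 0.09 and 0.10 in untethered replicates 1, 2 and 3, and in 12 of 18 both arrays numbered 1 lay below the other 4, against 23.3%. Mrtfb, an SRF co-activator, stood at -0.29 (SE 0.09). It was the 1 gene of the 18 whose groups did not overlap, where the background was 8.16%. Myl9 (0.07, SE 0.064), Zyx (0.13, SE 0.14) and Tpm1 (-0.14, SE 0.17), all of the actin cytoskeleton, had the next smallest p-values.

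Signs of RNA quality were set beside the same arrays. For the transferrin receptor control the log2 signal at its 5' end less that at its 3' end was -2.09, -1.67 and -1.55 in tethered replicates 1, 2 and 3, against -2.81, -3.07 and -1.52 in untethered replicates 1, 2 and 3. For beta-actin it was -0.29, -0.10 and -0.12 in tethered and -0.31, -0.56 and -0.15 in untethered arrays. For GAPDH it was 0.10, 0.09 and 0.08 in tethered and 0.04, -0.06 and 0.08 in untethered arrays. Over all arrays, none of these 3 controls was lowest in tethered replicate 1, the lowest array for Ccn2 and Ccn1. Among the tethered arrays alone, replicate 1 was the lowest for the transferrin receptor and beta-actin and the highest for GAPDH. The part of cell density, growth state, RNA quality or array number in the spread of Ccn2 and Ccn1 was not tested.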

How the data were processed

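Biotin-labelled target from total RNA of 3 tethered and 3 untethered samples was put on Affymetrix mouse arrays, per the labels' protocols. The authors deposited 1 linear intensity per probe set and array. Which software summarised and scaled the probes was not given in the sources used here. Medians differed by 1.76% between arrays and 95th percentiles by 16.4%, so the deposited values were used without further scaling. The number of arrays limits the precision.

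Of 45101 probe sets, 64 controls were left out. Symbols came from the platform annotation, updated through the gene identifier to RefSeq (GRCm38.p6). A symbol alone was given for 34945 probe sets, several for 932 and none for 9160. Intensities under 16 were set to 16, log2 was taken, and the 22518 probe sets with a mean above the median were tested with limma 3.58.1 (R 4.3.3), two-sided, with Benjamini-Hochberg adjustment and a threshold of 0.05. Errors are standard deviations over 3 arrays or limma's standard errors. The brightest probe set stood for a gene in counts and medians. Probe sets below the filter took their values from a fit of all 45037. On simulated arrays of the 22518 probe sets, the comparison recovered 29.5% of changes of 1.5-fold, 66.5% of those of 2-fold and 91.5% of those of 4-fold.

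All 10 genes were named with every probe set. Of each list, the 4 tested genes with the smallest p were named, and, for Ccn1 and Ccn2, the 3 genes of most similar pattern. The genes, lists and tests were chosen with earlier results of these data known. Alternatives were quantile normalization, median centring, another floor, a pseudocount of 16, other filters, the replicate number as a block, an intensity trend, array weights, averaging all probe sets of a gene, and arrays left out singly or both arrays numbered 1 together.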

Additional observations from a re-analysis of the deposited data

How the results depend on the processing

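Limma with Benjamini-Hochberg adjustment called 0 probe sets under every alternative run, and at an unadjusted p under 0.05 the count was 536 (160 higher and 376 lower in tethered arrays). That count was 529 (251 higher, 278 lower) after quantile normalization, 528 (217 higher, 311 lower) after median centring, 1782 without the filter, 159 with a filter at the upper quartile, 1835 with array weights, 1487 without both arrays numbered 1, and 237 to 1488 with single arrays left out. No paired design is stated. Deviations of arrays with the same number correlated at 0.71, 0.075 and 0.711, and those numbered 2 did not correlate best with each other. Tethered replicate 3 with untethered replicate 1 gave -0.769, and tethered replicate 1 with untethered replicate 3 gave -0.668. The main fit did not take the numbers as pairs, so spread shared by a number stayed in its error. With the replicate number as a block 0 probe sets were called, 1232 had an unadjusted p under 0.05, and no call changed. Among the 10 genes, Wwtr1 (1437155_a_at) had an unadjusted limma p of 0.0305 with the block, against 0.221 without it. Its adjusted p with the block was 0.7401. Over all alternatives other than leaving out a single array, the block included, 176 of 189 values of the 10 genes kept their sign and 13 did not, with 0 past the threshold. Averaging all probe sets of a gene gave 0.11 for Yap1, -0.08 for Axl, -0.22 for Taok3, 0.0046 for Ctnnb1 and -0.01 for Ckm. Tead2 stood at 0.05 after quantile normalization and 0.01 after centring. Array weights gave -0.03 for Wwtr1 (1417818_at), 0.01 for Ccn1 (1438133_a_at), 0.02 for Ccn2, -0.05 for Ankrd1 (1420991_at), 0.07 for Rgs2, 0.12 for Dusp5 and 0.03 for Dynap. Without both arrays numbered 1 the values were -0.07 for Wwtr1 (1417818_at), 0.17 and 0.23 for Ccn1 (1416039_x_at and 1438133_a_at), 0.24 for Ccn2, -0.03 for Ankrd1 (1420991_at), 0.18 for Rgs2, 0.05 for Tubb2a, 0.23 for Dusp5, 0.01 for S1pr3 and 0.11 for Dynap.

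With single arrays left out, values that changed sign ran from -0.20 to 0.01 for Yap1, -0.02 to 0.06 for Wwtr1 (1417817_a_at), -0.01 to 0.16 for Wwtr1 (1417818_at), -0.24 to 0.0028 for Tead1, -0.12 to 0.07 for Tead2, -0.64 to 0.32 for Ccn1 (1416039_x_at), -0.81 to 0.39 for Ccn1 (1438133_a_at), -0.03 to 0.17 for Ccn1 (1442340_x_at), -0.0038 to 0.18 for Ccn1 (1457823_at), -1.06 to 0.56 for Ccn2, -0.09 to 0.19 for Ankrd1 (1420991_at), -0.07 to 0.14 for Amotl2, -0.0032 to 0.12 for Lats2 (1419678_at), -0.18 to 0.22 for Lats2 (1437101_at) and -0.10 to 0.21 for Axl. Among the genes of similar pattern they ran from -0.51 to 0.39 for Rgs2, -0.59 to 0.29 for Tubb2a, -0.40 to 0.43 for Dusp5, -0.96 to 0.28 for Dusp6, -0.90 to 0.37 for S1pr3 and -0.71 to 0.51 for Dynap, and among list and marker genes from -0.01 to 0.21 for Gins2, -0.31 to 0.07 for Cenpf, -0.84 to 0.22 for Mki67, -0.14 to 0.10 for Lyz2, -0.0036 to 0.08 for Ckm, -0.04 to 0.25 for Acta1 and -0.07 to 0.13 for Tnni2. The medians ran from -0.13 to 0.05 for the 10 genes, -0.08 to -0.01 for other Hippo pathway genes, -0.09 to -0.02 for other YAP and TEAD target genes, -0.16 to -0.04 for growth arrest and quiescence genes, -0.49 to 0.36 for proliferation genes, -0.10 to -0.01 for cell-cell adhesion genes, -0.64 to -0.40 for serum-response and immediate early genes and -0.14 to 0.07 for actin cytoskeleton and SRF targets. The upper end came without tethered replicate 1 for Ccn2, Ccn1, Axl and the genes of similar pattern. So it did for the medians of the 10 genes, other YAP and TEAD targets, proliferation genes, cell-cell adhesion genes and SRF targets. For growth arrest and immediate early genes it came without untethered replicate 1, and for other Hippo pathway genes without tethered replicate 2. The cause of these shifts was not tested. With 3 arrays a group the comparison could miss changes of 1.5-fold and smaller ones, since 29.5% of simulated 1.5-fold changes were recovered. It also left out the shift shared by the arrays numbered 1, so recovery in the real arrays may differ. The probe sets of Lats2 below the filter were dimmer than the median probe set.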
